A study of Mus musculus with 8 samples.

Results

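The genes described here encode 31 mouse protease inhibitors out of 23393 gene symbols measured by RNA-seq. They are all 27 genes named Serpinb followed by a number and an optional letter, which form clade B of the serpins, together with 4 inhibitor genes of other families, Slpi, Spink5, Cst6 and Csta1. They were chosen by symbol, with no threshold on a measured value, but with earlier results of these data known. The study profiled epithelium from 4 regions of the mouse gut at E16.5, late in gestation, the forestomach, the hindstomach, the colon and the proximal small intestine (called intestine here), with 2 libraries of each region and 8 in all. The labels name no treatment, no mutation and no strain; they describe ShhCre;R26YFP/+ embryos, in which a Cre driven from the Shh locus switches on a yellow fluorescent reporter in gut epithelium, for the isolation at this age, and do not give the genotype per library. Forestomach epithelium was peeled by hand from the mesenchyme after Dispase digestion, whereas epithelium of the other 3 regions was shaken off in EDTA, with a higher EDTA concentration for the hindstomach than for colon and intestine. Region and isolation method therefore cannot be told apart in comparisons with the forestomach or the hindstomach, whereas colon and intestine shared a method. The labels do not say whether the replicates came from different embryos or pools of embryos, so each p-value measures only the spread between these libraries.

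Serpins trap a protease by offering a reactive centre loop as bait: the protease cuts the loop and is locked to the inhibitor. Clade B serpins lack a classical secretion signal and act mostly inside the cell or after release, and several guard cells against their own lysosomal or granule proteases. Spink5, Slpi, Cst6 and Csta1 belong to other inhibitor folds, and in squamous epithelia such as skin and forestomach they are known as products of the differentiating, cornifying layers. In the mouse, several clade B genes that are single in humans occur as families of near copies.

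The 27 Serpinb genes lay in 2 clusters, by the GENCODE M21 annotation of GRCm38. The chromosome 1 cluster held 12 genes over 749.3 kb (positions 106861173 to 107610484, from Serpinb5 to Serpinb8). The chromosome 13 cluster held 15 genes over 1160.7 kb (positions 32842092 to 34002794, from Serpinb1a to Serpinb6a). Csta1 lies on chromosome 16 (36119946 to 36131241, minus strand), Cst6 on chromosome 19 (5344705 to 5349574, minus strand) and Slpi on chromosome 2 (164354070 to 164389095, minus strand).

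Near copies matter for reading the values, since a short read can fall where 2 genes are alike. The stretch of coding sequence around the reactive centre loop is shown for 3 of the Serpinb3 genes because this loop meets the protease, and because the 3 genes differ in it to unlike degrees; capitals mark bases that differ from Serpinb3a (GENCODE M21 transcripts, GRCm38, minus strand; chr1:107046091-107046174 for Serpinb3a, chr1:107154444-107154527 for Serpinb3b and chr1:107078268-107078351 for Serpinb3d).
Serpinb3a: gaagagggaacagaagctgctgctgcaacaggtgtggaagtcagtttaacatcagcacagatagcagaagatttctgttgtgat
Serpinb3b: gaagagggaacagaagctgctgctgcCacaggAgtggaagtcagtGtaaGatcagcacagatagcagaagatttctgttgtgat
Serpinb3d: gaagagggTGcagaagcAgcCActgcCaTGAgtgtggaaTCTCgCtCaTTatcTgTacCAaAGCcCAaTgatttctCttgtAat
In this stretch of 84 bases Serpinb3b differed from Serpinb3a at 4 bases and 2 of 28 encoded residues, and Serpinb3d at 29 bases and 15 residues. Over the whole coding sequence Serpinb3a shared 92.7% of bases with Serpinb3b and 89.2% with Serpinb3d, and 5.3% of its 50-base windows occurred unchanged in Serpinb3b. The closest pair was Serpinb9f and Serpinb9g, with 98.7% of coding bases alike and 37.8% of the 50-base windows of Serpinb9f present in Serpinb9g. The sources used here do not say how reads common to 2 copies were assigned, so the split of signal among Serpinb3a, Serpinb3b, Serpinb3c and Serpinb3d is uncertain. Serpinb2 and Serpinb10 overlap on the same strand by 6.5 kb, and Serpinb3b and Serpinb3c by 7.2 kb, which makes their separate values uncertain too.

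The regions directly upstream of 4 genes are shown because the 2 clusters differed in the short motifs found there: Serpinb5, Serpinb12 and Serpinb3a of chromosome 1, and Serpinb6a of chromosome 13. Each is the 250 bases before the RefSeq start of transcription (GRCm38.p6), read along the gene; capitals mark matches on either strand to the AP-1 motif TGANTCA and to the TATA box TATAAA. The positions are chr1:106860925-106861174 (plus strand) for Serpinb5, chr1:106934199-106934448 (plus) for Serpinb12, chr1:107052304-107052553 (minus) for Serpinb3a and chr13:34002795-34003044 (minus) for Serpinb6a.
Serpinb5: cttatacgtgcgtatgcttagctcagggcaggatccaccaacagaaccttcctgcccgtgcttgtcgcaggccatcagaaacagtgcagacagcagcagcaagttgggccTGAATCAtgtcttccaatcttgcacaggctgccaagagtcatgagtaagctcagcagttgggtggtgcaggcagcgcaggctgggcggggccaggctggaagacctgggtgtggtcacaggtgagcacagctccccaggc
Serpinb12: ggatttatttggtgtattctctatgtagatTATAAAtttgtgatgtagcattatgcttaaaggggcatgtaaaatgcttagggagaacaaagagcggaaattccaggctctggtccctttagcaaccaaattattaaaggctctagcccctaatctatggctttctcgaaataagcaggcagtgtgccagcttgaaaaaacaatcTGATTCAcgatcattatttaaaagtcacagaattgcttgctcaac
Serpinb3a: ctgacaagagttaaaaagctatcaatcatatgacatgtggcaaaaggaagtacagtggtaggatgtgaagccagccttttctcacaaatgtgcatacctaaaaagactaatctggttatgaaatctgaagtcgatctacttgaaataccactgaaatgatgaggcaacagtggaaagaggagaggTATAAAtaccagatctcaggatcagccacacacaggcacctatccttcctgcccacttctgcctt
Serpinb6a: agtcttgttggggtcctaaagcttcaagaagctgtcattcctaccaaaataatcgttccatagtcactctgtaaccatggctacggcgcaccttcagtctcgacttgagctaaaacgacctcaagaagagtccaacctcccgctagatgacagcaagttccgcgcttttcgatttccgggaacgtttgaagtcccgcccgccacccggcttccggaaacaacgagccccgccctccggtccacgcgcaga
RefSeq promoter windows were matched for 27 of the 31 genes, 11 of them Serpinb genes of chromosome 1 and 14 Serpinb genes of chromosome 13. TGANTCA was present upstream of 7 of the 11 chromosome 1 genes (Serpinb5, Serpinb12, Serpinb11, Serpinb7, Serpinb2, Serpinb10 and Serpinb8), of 0 of the 14 chromosome 13 genes and in 6.75% of all 32851 windows of that length. The first base of the match lay 140 bases before the start in Serpinb5, 45 bases before it in Serpinb12 and in Serpinb7, and 23 bases before it in Serpinb8. TATAAA was present upstream of 7 of 11 chromosome 1 genes, 1 of 14 chromosome 13 genes and 12.37% of all windows; in Serpinb3a it lay 65 bases before the start. Searches were made for 11 motifs, and most gave no such contrast; TTGCNNAA, a C/EBP-type motif, was found in 3 and 0 of the same genes (9.56% of all windows) and CACCC, a Klf-type motif, in 6 and 10 (52.01%). Genes of a cluster arose by duplication and are not independent, and a match is a run of letters, not a bound site.

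Levels are in FPKM, fragments scaled to transcript length and to the library's mapped fragments, as deposited by the authors. Of the 31 genes, 5 were listed at 0 in all 8 libraries (Serpinb9c, Serpinb9d, Serpinb9f, Serpinb6d and Serpinb6e), and 14 reached 1 FPKM in at least 2 libraries and entered the tests. Of those 14, 5 reached 1 FPKM in no library outside the forestomach (Serpinb12, Serpinb3a, Serpinb11, Serpinb2 and Spink5), so they could pass only by being high there. Serpinb5 and Csta1 each reached it in 1 library outside the forestomach, so they too needed a forestomach library to pass.

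The library labelled forestomach replicate 1 stood apart. Its 13 gastric glandular markers summed to 169599 FPKM, against 85.2 FPKM in forestomach replicate 2 and 1816 and 2674 FPKM in the hindstomach libraries. Its 12 mesenchyme markers summed to 3666 FPKM, against 91.8 FPKM in forestomach replicate 2. Its 10 most abundant genes held 52.5% of all its FPKM, against 6.27% to 17.4% in the other 7 libraries. The 20 suprabasal squamous markers summed to 2103 and 57234 FPKM in forestomach replicates 1 and 2. They summed to 310 and 111.5 FPKM in hindstomach replicates 1 and 2, and to between 9.88 and 42.05 FPKM in colon and intestine. Squamous epithelium was thus present in both forestomach libraries. The part of squamous RNA in the hindstomach levels of the inhibitor genes was not tested. Log2(FPKM + 1) values of the 2 forestomach libraries correlated at r = 0.713 across genes, against 0.959 to 0.984 for the other pairs. The steps between the smallest values put forestomach replicate 2, hindstomach replicate 2, intestine replicate 2 and colon replicate 1 at 0.427 to 0.495 of the depth of intestine replicate 1, and the other 3 at 0.852 to 0.943 of it, so low values were read more finely in some libraries than in others. The forestomach comparisons of inhibitor genes are therefore also given without forestomach replicate 1. A gene that then misses the filter is given from a fit with no filter. In both fits only 1 forestomach library remains, so standard errors and p-values rest on the other tissues and do not measure forestomach spread.

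Summed over its genes, the chromosome 1 cluster was highest in the forestomach. Its 12 genes summed to 41.5 and 1304 FPKM in forestomach replicates 1 and 2, to 4.33 and 2.21 FPKM in the hindstomach, to 0.399 and 0.569 FPKM in the colon and to 0.127 and 0.0478 FPKM in the intestine. Both forestomach libraries lay above all 6 others for 10 of the 12 genes. In bulk tissue, fewer cells of a type and less RNA per cell cannot be told apart, so these sums do not say how many cells of a region use a gene.

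The chromosome 13 cluster was highest in colon and intestine in its sum. Its 15 genes summed to 84.9 and 86.3 FPKM in the forestomach, 84.8 and 62.8 FPKM in the hindstomach, 234.9 and 219.6 FPKM in the colon and 232.7 and 232.8 FPKM in the intestine. Both forestomach libraries lay above the other 6 for 0 of its 15 genes. Serpinb1a alone made up between 53.5% and 79.4% of that sum, and 10 of the 15 genes stayed under 0.5 FPKM in every library. Among all 31 genes, 13 had both forestomach libraries above the other 6 (10 of chromosome 1, with Slpi, Csta1 and Spink5); that order held for 5.53% of the 19986 genes above 0 in any library.

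**Figure D1:**
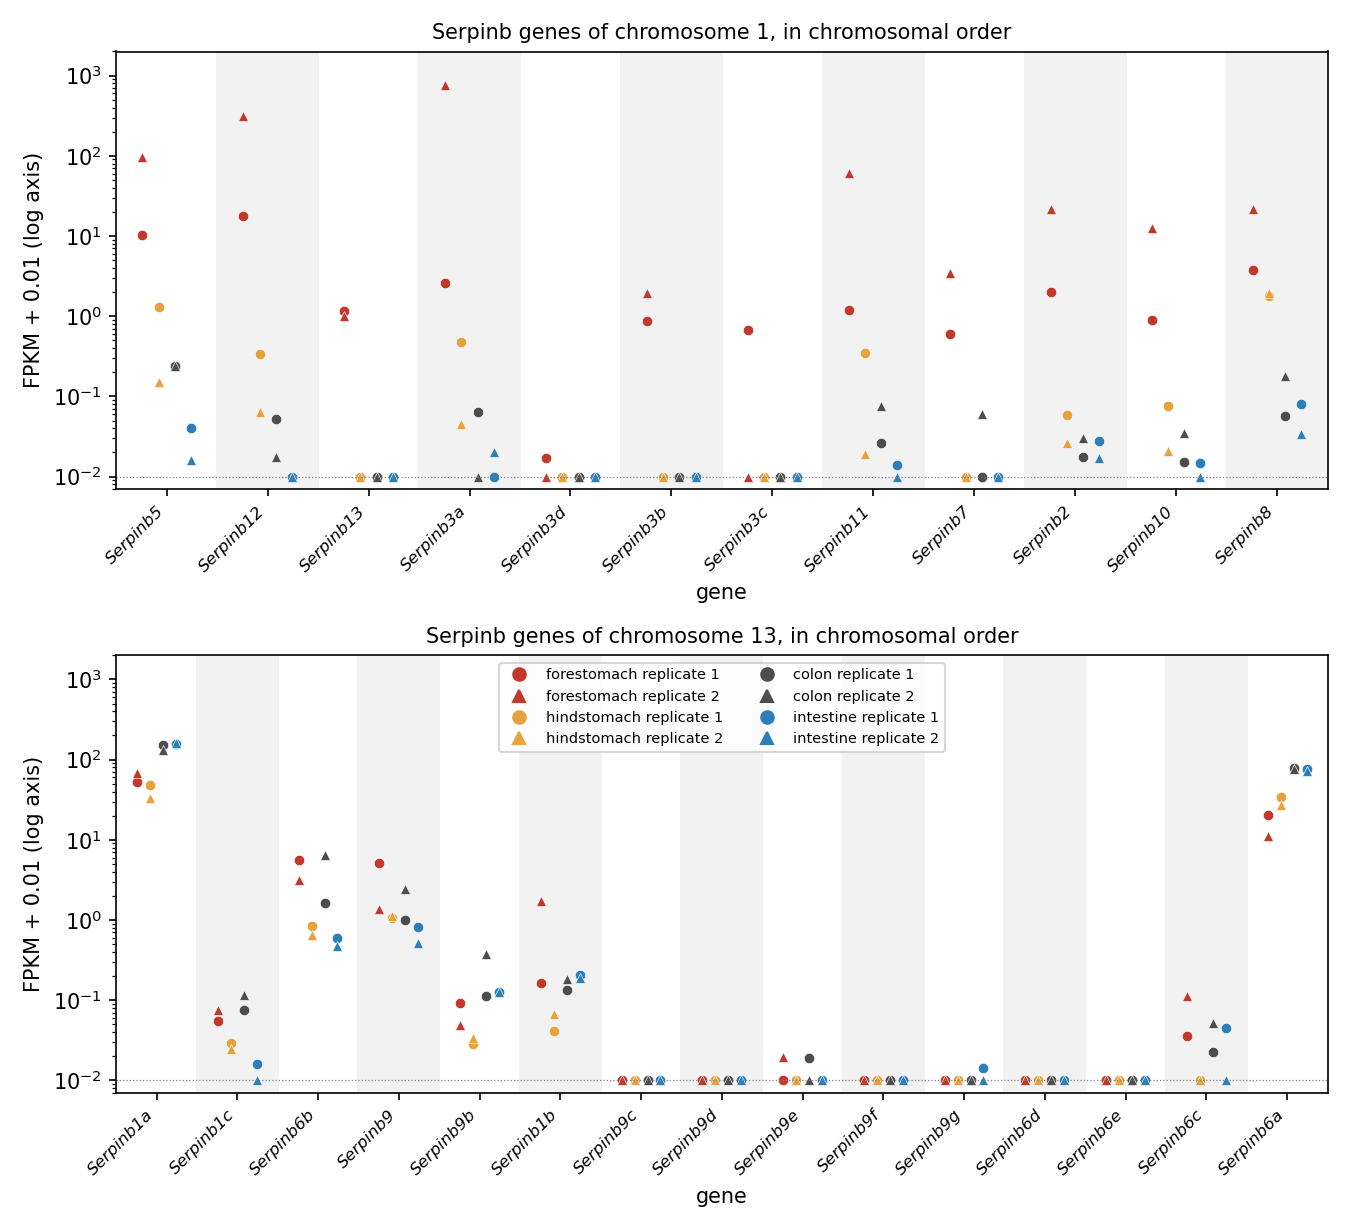
FPKM + 0.01 on a log axis for each Serpinb gene in chromosomal order, chromosome 1 above and chromosome 13 below, with 1 point per library (circles replicate 1, triangles replicate 2, colours the tissues; the dotted line is a listed value of 0). Forestomach points stand above the others for 10 of 12 chromosome 1 genes, whereas on chromosome 13 most genes lie near 0 and Serpinb1a and Serpinb6a are highest in colon and intestine.

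Serpinb5, known as maspin, is a clade B member of epithelial cells that does not trap proteases. It measured 10.2 and 96.9 FPKM in forestomach replicates 1 and 2, 1.30 and 0.141 FPKM in the hindstomach, 0.228 and 0.229 FPKM in the colon and 0.0300 and 0.00607 FPKM in the intestine. The forestomach libraries were the 2 highest and did not overlap the rest, but differed from each other 9.53-fold. In a limma fit over all 12894 genes that passed the filter, on log2(FPKM + 1), forestomach exceeded intestine by 5.02 ± 0.96 (log2 units, with the standard error of the fit; adjusted p = 0.0168) and colon by 4.75 ± 0.96 (adjusted p = 0.0280). Against the hindstomach the limma difference was 4.35 ± 0.96 with an adjusted p of 0.0555, and without forestomach replicate 1 it was 5.92. The differences from intestine and colon were then 6.59 and 6.32. Both calls are a description, since Serpinb5 reached 1 FPKM in 1 library outside the forestomach and needed a forestomach library to pass. The limma fit uses 1 spread per gene for all 4 tissues. A gap between the forestomach libraries therefore enters the standard error of every comparison.

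Serpinb12, whose human counterpart inhibits trypsin-like proteases, measured 17.7 and 311 FPKM in forestomach replicates 1 and 2, 0.325 and 0.0543 FPKM in the hindstomach, 0.0419 and 0.00777 FPKM in the colon and 0 in both intestine libraries. No library outside the forestomach came near either forestomach value. It was called higher in forestomach than in hindstomach (log2 fold change 6.01 ± 1.18, limma adjusted p = 0.0421), intestine (6.25 ± 1.18, adjusted p = 0.0162) and colon (6.22 ± 1.18, adjusted p = 0.0237). These calls are a description, since Serpinb12 reached 1 FPKM in no library outside the forestomach and could pass the filter only there. Without forestomach replicate 1 it met the filter no longer. With no filter its differences from hindstomach, intestine and colon were then 8.04, 8.28 and 8.25.

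Serpinb3a showed the widest gap between the forestomach libraries. It is a mouse relative of human SERPINB3 and SERPINB4, the squamous cell carcinoma antigens, which inhibit lysosomal cysteine proteases and chymotrypsin-like serine proteases. It measured 2.60 FPKM in forestomach replicate 1 and 774 FPKM in replicate 2, a 297.6-fold difference, against 0.465 and 0.0356 FPKM in the hindstomach, 0.0535 and 0 FPKM in the colon and 0 and 0.0102 FPKM in the intestine. The forestomach libraries were again the 2 highest. With that spread the limma fit did not call it (5.42 ± 2.23 against hindstomach, adjusted p = 0.166). Without forestomach replicate 1 and with no filter the difference was 9.30, from replicate 2 alone.

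Serpinb3b measured 0.856 and 1.91 FPKM in the forestomach and was listed at 0 in the other 6 libraries. Serpinb3c had 0.654 and 0 FPKM there and Serpinb3d 0.00725 and 0 FPKM, also with 0 elsewhere. In replicate 2 the signal of this family was thus almost all assigned to Serpinb3a.

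Serpinb11, a trypsin inhibitor in the mouse, measured 1.19 and 60.8 FPKM in forestomach replicates 1 and 2, 0.335 and 0.00886 FPKM in the hindstomach, 0.0160 and 0.0666 FPKM in the colon and 0.00378 and 0 FPKM in the intestine. Serpinb2, the plasminogen activator inhibitor that acts on urokinase, measured 2.00 and 21.8 FPKM in the forestomach, 0.0483 and 0.0165 FPKM in the hindstomach, 0.00743 and 0.0206 FPKM in the colon and 0.0176 and 0.00711 FPKM in the intestine. Serpinb10, its neighbour, is listed by the annotation as a polymorphic pseudogene in the mouse reference. It measured 0.887 and 12.6 FPKM in the forestomach and 0.0650 and 0.0111 FPKM in the hindstomach. Its colon libraries had 0.00500 and 0.0250 FPKM and its intestine libraries 0.00473 and 0 FPKM. In all 3 genes replicate 2 carried the higher forestomach value and neither replicate overlapped the other tissues. None of the 3 was called by limma with both forestomach libraries: against the hindstomach Serpinb11 had an adjusted p of 0.172 and Serpinb2 an adjusted p of 0.0901, and Serpinb10 did not pass the filter. With forestomach replicate 1 left out and no filter, the differences from hindstomach were 5.73 for Serpinb11, 4.46 for Serpinb2 and 3.71 for Serpinb10. These rest on replicate 2 alone and leave out the gap between the forestomach libraries.

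Serpinb8, which inhibits the processing protease furin in human cells, was the chromosome 1 gene with a clear hindstomach level. It measured 3.75 and 21.8 FPKM in the forestomach, 1.79 and 1.95 FPKM in the hindstomach, 0.0473 and 0.170 FPKM in the colon and 0.0706 and 0.0244 FPKM in the intestine. The 3 levels, forestomach, hindstomach and bowel, did not overlap. Limma called it higher in forestomach than in intestine (3.31 ± 0.68, adjusted p = 0.0204) and colon (3.23 ± 0.68, adjusted p = 0.0312) but not than in hindstomach (1.86 ± 0.68, adjusted p = 0.137). Without forestomach replicate 1 these 3 differences were 4.44, 4.36 and 2.99. Hindstomach over intestine came to 1.45 ± 0.68 (limma adjusted p = 0.241) with all libraries and to 1.45 ± 0.16 (adjusted p = 0.00430) without forestomach replicate 1.

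Serpinb7 and Serpinb13 were low. Serpinb7, known as megsin, whose human gene is mutated in an inherited palmoplantar keratosis, measured 0.581 and 3.49 FPKM in the forestomach, with 0.0496 FPKM in colon replicate 2 and 0 in the other 5 libraries. Serpinb13, whose human counterpart inhibits cathepsins in squamous cells, had 1.15 and 0.987 FPKM in forestomach replicates 1 and 2 and 0 in all 6 others. Serpinb13 was the only chromosome 1 gene above 0 in both forestomach libraries that did not favour replicate 2.

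The 4 inhibitors outside clade B included Slpi, which had the highest single value of the set, and Spink5. The forestomach calls of Spink5 held under the 15 alternatives in which it could be fitted. Spink5, on chromosome 18, encodes LEKTI, a chain of Kazal-type inhibitor domains that restrains kallikreins 5 and 7 in skin. It measured 198.1 and 114 FPKM in forestomach replicates 1 and 2, 0.496 and 0.0202 FPKM in the hindstomach, 0.802 and 0.782 FPKM in the colon and 0.00518 and 0 FPKM in the intestine. Here the replicate with the glandular markers was the higher of the forestomach libraries, and both stood far above the rest. Forestomach exceeded hindstomach by 6.94 ± 0.33 (limma adjusted p = 5.03e-04), intestine by 7.24 ± 0.33 (adjusted p = 1.74e-04) and colon by 6.40 ± 0.33 (adjusted p = 2.79e-04). These calls are a description, since Spink5 too could pass the filter only through the forestomach. It missed the filter when either forestomach library was left out. With no filter and forestomach replicate 2 alone, the 3 differences were 6.54, 6.84 and 6.0.

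Slpi, the secretory leukocyte protease inhibitor, which blocks neutrophil elastase at epithelial surfaces, reached 89.5 and 1242 FPKM in the forestomach. It measured 0.303 and 0.164 FPKM in the hindstomach, 4.97 and 5.87 FPKM in the colon and 0.112 and 0.0566 FPKM in the intestine. The colon thus formed a middle level of its own, about 5 FPKM, above all hindstomach and intestine libraries and below both forestomach libraries. Forestomach exceeded hindstomach by 8.09 ± 1.10 (limma adjusted p = 0.0172), intestine by 8.27 ± 1.10 (adjusted p = 0.00552) and colon by 5.71 ± 1.10 (adjusted p = 0.0242). These differences were 9.98, 10.16 and 7.60 without forestomach replicate 1. Colon over intestine was 2.56 ± 1.10 and missed the threshold with all libraries (limma adjusted p = 0.364), whereas it was 2.56 ± 0.15 and called without forestomach replicate 1 (adjusted p = 0.00441).

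Csta1, a stefin A gene encoding an intracellular inhibitor of cysteine cathepsins, measured 3.98 and 149.1 FPKM in the forestomach, 1.04 and 0.0766 FPKM in the hindstomach, 0.0877 and 0.126 FPKM in the colon and 0 in both intestine libraries. The forestomach libraries differed 37.5-fold, and the limma difference from hindstomach was 4.20 ± 1.44 and not called (adjusted p = 0.124). Without forestomach replicate 1 that difference was 6.66. Cst6 encodes cystatin M/E, which inhibits legumain and cathepsin L. It measured 7.04 and 13.7 FPKM in the forestomach, 0.942 and 1.06 FPKM in the hindstomach, 4.28 and 1.23 FPKM in the colon and 5.19 and 7.33 FPKM in the intestine. Both hindstomach libraries of Cst6 lay below all 6 others. Forestomach exceeded hindstomach by 2.44 ± 0.49 (limma adjusted p = 0.0435), while the differences from intestine, 0.60 ± 0.49, and colon, 1.66 ± 0.49, were not called (adjusted p = 0.439 and 0.0739). With forestomach replicate 1 left out, the difference from hindstomach was 2.88 ± 0.51 and that from colon 2.10 ± 0.51, both called (limma adjusted p = 0.0110 and 0.0261), and that from intestine was 1.03 ± 0.51 and not called (adjusted p = 0.168). Hindstomach minus intestine was -1.84 ± 0.49 (limma adjusted p = 0.0829), and -1.84 ± 0.42 without forestomach replicate 1 (adjusted p = 0.0255).

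**Figure D2:**
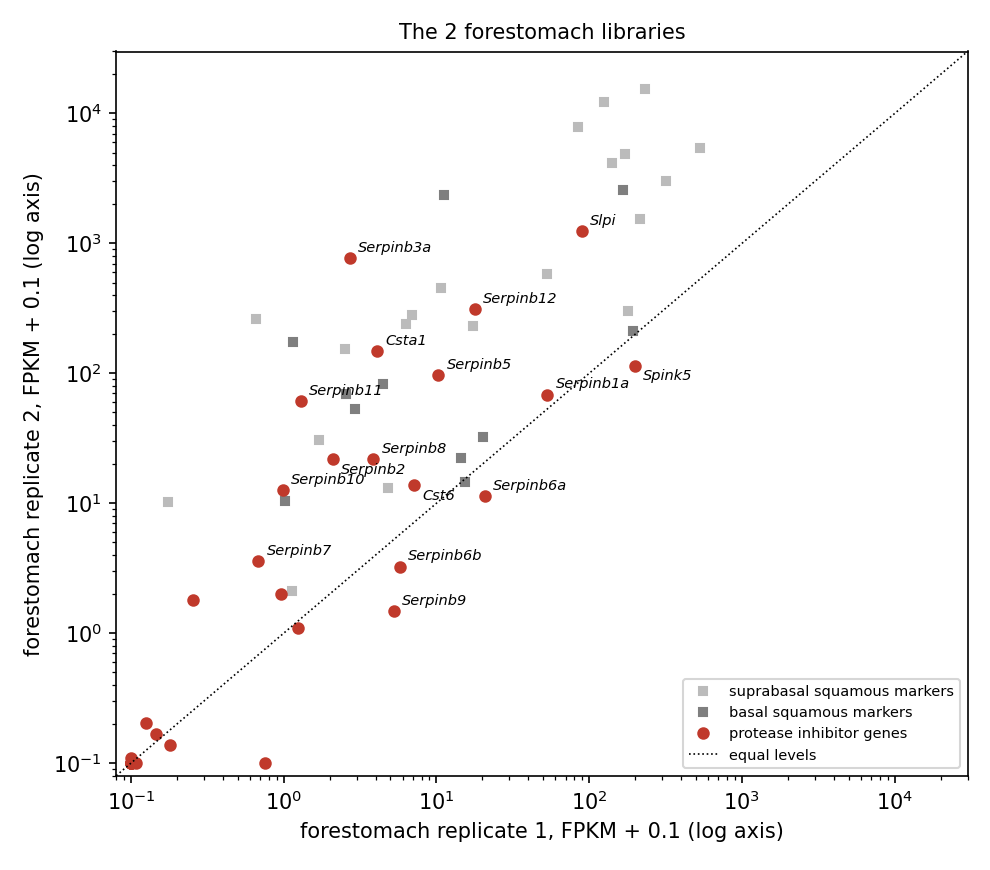
Each point is 1 gene, with FPKM + 0.1 in forestomach replicate 1 on the horizontal log axis and in replicate 2 on the vertical log axis; red circles are the inhibitor genes, grey squares squamous marker genes and the dotted line equal levels. Serpinb3a, Serpinb11 and Csta1 lie far above the line, Serpinb1a close to it, and Spink5, Serpinb6a and Serpinb9 below it.

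The 2 forestomach libraries ranked the inhibitors differently. Of the 22 inhibitor genes above 0 in both, 16 were higher in replicate 2. Ratios of replicate 2 to replicate 1 ran from 0.267 for Serpinb9 to 297.6 for Serpinb3a, with a median of 4.94. Across all 19986 genes above 0 in any library, 47.4% were higher in replicate 2. That share has a wider base, since it includes genes at 0 in a forestomach library. For the chromosome 1 genes 9 of 10 were higher, with a median ratio of 10.2. Suprabasal squamous markers moved with them: all 20 were higher in replicate 2, by 1.67-fold to 466.2-fold with a median of 29.0. Of the 11 basal squamous markers, 10 were higher, with a median ratio of 15.4. Whether a lower share of squamous RNA accounts for the lower inhibitor levels in replicate 1 was not tested; Spink5, at a ratio of 0.575, and Serpinb13, at 0.859, did not share the gap.

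**Figure D3:**
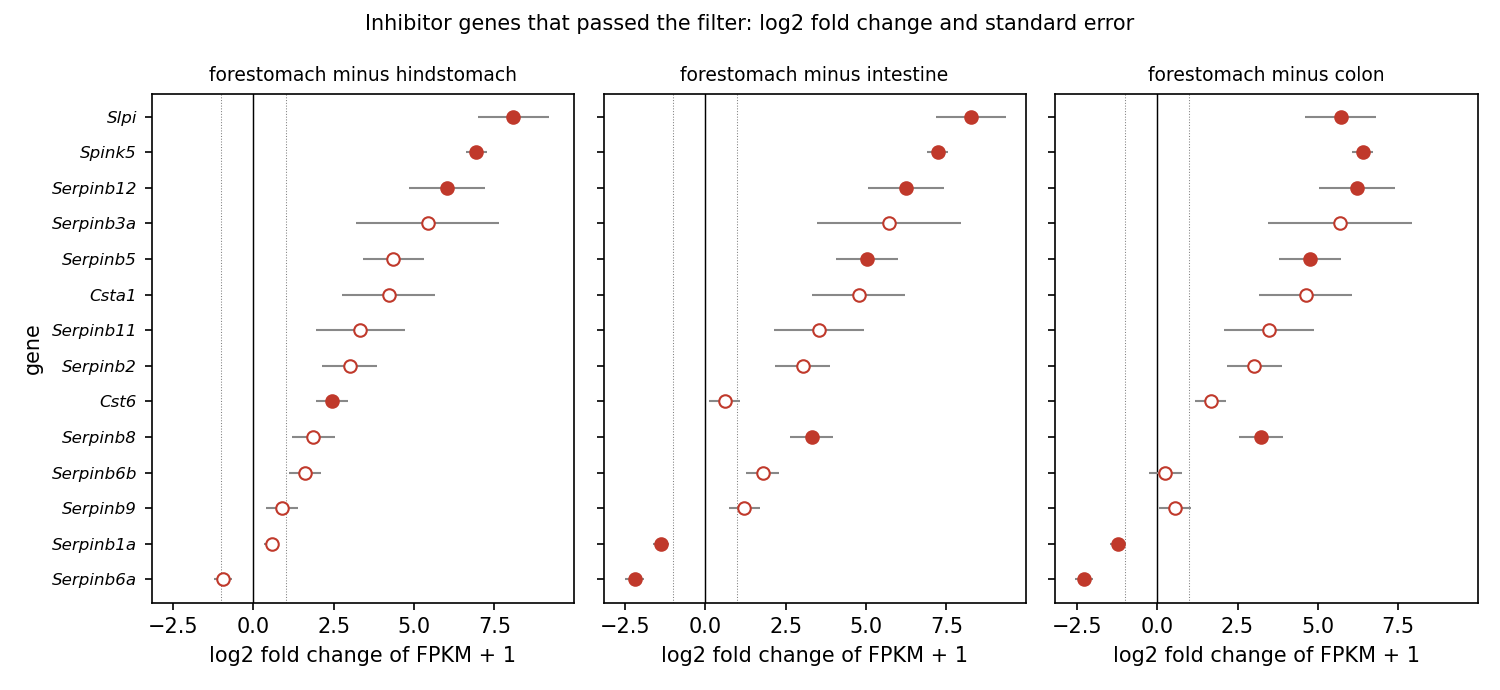
Log2 fold change of FPKM + 1 (horizontal axis) with its standard error for the 14 inhibitor genes that passed the filter, in the 3 comparisons with the forestomach on top. Filled circles were called at adjusted p under 0.05 and at least 2-fold (dotted lines); 4, 7 and 7 genes were filled, and Serpinb1a and Serpinb6a lie left of 0 against intestine and colon.

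A gene was called where its limma adjusted p, by Benjamini-Hochberg over all genes tested, was under 0.05 and its change at least 2-fold. Between forestomach and hindstomach 4 inhibitor genes were called, all higher in forestomach (Slpi, Spink5, Serpinb12 and Cst6), where 5.59% of all genes tested were called in either direction, 1.33% higher and 4.26% lower. Between forestomach and intestine 7 were called, 5 higher in forestomach (Serpinb5, Serpinb12, Serpinb8, Slpi and Spink5) and 2 lower (Serpinb1a and Serpinb6a), against 17.1% of all genes in either direction, 5.78% higher and 11.3% lower. Between forestomach and colon the same 7 genes were called in the same directions, against 11.6% in either direction, 2.41% higher and 9.20% lower. These 3 comparisons share the forestomach libraries and are not independent. Genes that could enter the test only through a high forestomach value had to differ, so these counts are not evidence about the family.

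Leaving out forestomach replicate 1 changed the calls, and the filter then dropped the genes seen only in forestomach. With the filter, 9 inhibitor genes were tested and 6 were called against hindstomach (20.9% of all genes called), 6 against intestine (27.9%) and 7 against colon (25.6%). With no filter, 24 were tested; 14 were called higher and 1 lower in forestomach than in hindstomach (5.41% and 7.59% of all genes), 13 higher and 2 lower than in intestine (8.19% and 9.75%) and 13 higher and 2 lower than in colon (5.34% and 9.62%). In these fits the lone forestomach library is assumed to vary as the other tissues do. Of the 18 calls in the forestomach comparisons, only the 3 of Spink5 held under all 15 alternatives in which that gene could be fitted. The other 15 each failed under at least 1, mostly on leaving out 1 library. Against hindstomach, the calls of Slpi and Cst6 were lost without any single hindstomach or intestine library (limma adjusted p 0.0521 to 0.153 for Slpi and 0.110 to 0.264 for Cst6), and that of Serpinb12 also without either colon library (0.0880 to 0.247). Against intestine, Serpinb5, Serpinb12, Serpinb1a and Serpinb6a were lost without either intestine library (limma adjusted p 0.0506 to 0.114), Serpinb8 without any single hindstomach or intestine library (0.0540 to 0.121), while Slpi was called without each single library. Against colon, Serpinb6a was lost without colon replicate 1 only (limma adjusted p = 0.0608), Serpinb1a without any single colon or intestine library or hindstomach replicate 2 (0.0506 to 0.153), and Serpinb5, Serpinb12, Serpinb8 and Slpi without any single colon, hindstomach or intestine library (0.0586 to 0.155).

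Serpinb1a, a fast inhibitor of neutrophil elastase and cathepsin G, was the most abundant Serpinb gene of the bowel. It measured 53.1 and 68.5 FPKM in the forestomach, 48.8 and 33.6 FPKM in the hindstomach, 152.8 and 133.1 FPKM in the colon and 154.6 and 160.2 FPKM in the intestine. The 4 bowel libraries stood above the 4 stomach libraries, an order also seen in Serpinb6a and Serpinb9b and in 9.11% of all genes above 0. The means were 60.8 ± 10.9 FPKM in forestomach, 41.2 ± 10.7 FPKM in hindstomach, 142.9 ± 13.9 FPKM in colon and 157.4 ± 3.91 FPKM in intestine (SD, n = 2 each). Within stomach and within bowel the difference missed the threshold: forestomach minus hindstomach was 0.56 ± 0.25 (limma adjusted p = 0.183) and colon minus intestine -0.14 ± 0.25 (adjusted p = 0.808).

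Serpinb1a fell by 1.37 ± 0.25 in forestomach relative to intestine (limma adjusted p = 0.0138) and fell by 1.23 ± 0.25 relative to colon (adjusted p = 0.0273), on the log2 scale. It fell by 1.93 ± 0.25 in hindstomach relative to intestine (limma adjusted p = 0.0177) and fell by 1.79 ± 0.25 relative to colon (adjusted p = 0.0307). It was the only inhibitor gene of the 14 called in either hindstomach comparison, where 5.03% of all genes were called against intestine and 1.50% against colon. Without forestomach replicate 1, limma called 4 inhibitor genes between hindstomach and intestine (Serpinb8 higher in hindstomach, Serpinb1a, Serpinb6a and Cst6 lower; 17.4% of all genes) and 4 between hindstomach and colon (Serpinb8 higher, Slpi, Serpinb1a and Serpinb6a lower; 7.59%). All 4 Serpinb1a differences were called there too, the forestomach ones at -1.19 ± 0.24 and -1.05 ± 0.24 (limma adjusted p = 0.0121 and 0.0217). The hindstomach differences were lost without any single hindstomach or intestine library (limma adjusted p 0.0958 to 0.197 against intestine), and the one from colon also without either colon library (0.118 to 0.279). Both differences from colon were lost after median-of-ratios scaling, which evens the median gene between libraries.

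Serpinb6a, an inhibitor of cathepsin G and trypsin-like proteases that is found in many cell types, was also lower in stomach than in bowel. Its lowest level was in the forestomach, whereas that of Serpinb1a was in the hindstomach. It measured 20.6 and 11.3 FPKM in the forestomach, 34.1 and 27.4 FPKM in the hindstomach, 79.2 and 77.0 FPKM in the colon and 76.3 and 71.3 FPKM in the intestine. Colon and intestine overlapped, both lay above the hindstomach, and the hindstomach lay above the forestomach. It fell by 2.20 ± 0.29 in forestomach relative to intestine (limma adjusted p = 0.00549) and fell by 2.28 ± 0.29 relative to colon (adjusted p = 0.00685). The same differences were -2.61 ± 0.17 and -2.69 ± 0.17 without forestomach replicate 1 (limma adjusted p = 3.54e-04 and 3.97e-04). Its other steps missed the threshold with all 8 libraries: forestomach minus hindstomach -0.95 ± 0.29 (limma adjusted p = 0.102), hindstomach minus intestine -1.25 ± 0.29 (adjusted p = 0.0648) and hindstomach minus colon -1.33 ± 0.29 (adjusted p = 0.117). All 3 were called without forestomach replicate 1, at -1.36 ± 0.17, -1.25 ± 0.14 and -1.33 ± 0.14 (limma adjusted p = 0.00351, 0.00408 and 0.00521).

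**Figure D4:**
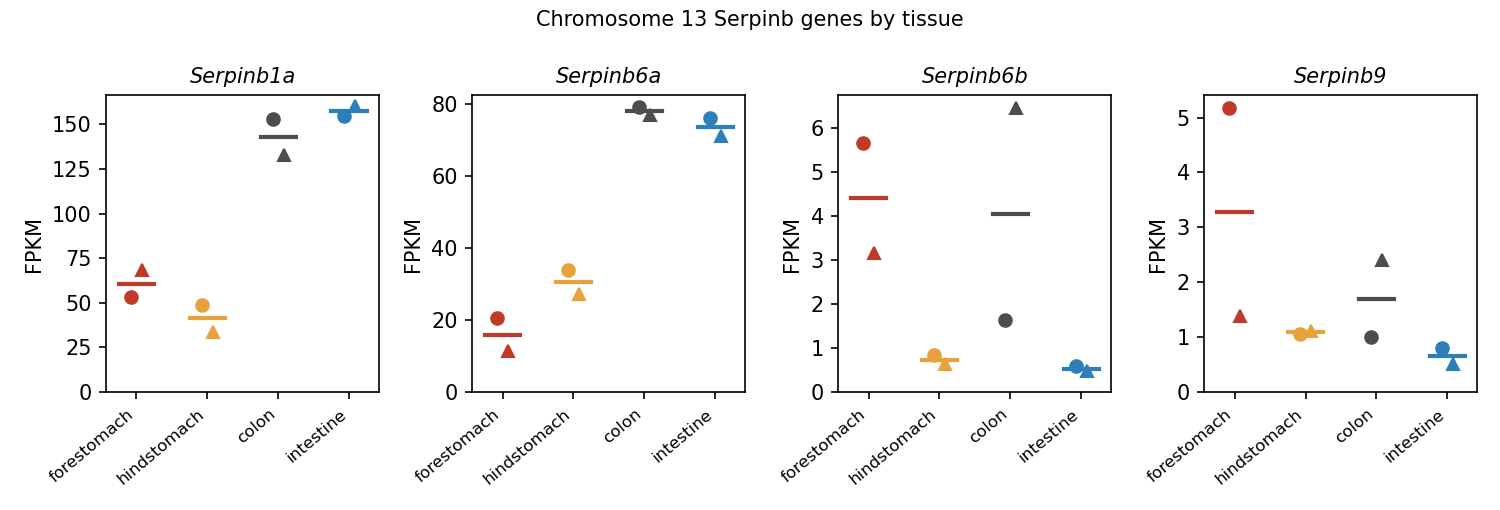
FPKM in each library (circles replicate 1, triangles replicate 2) with the tissue mean as a bar, for the 4 chromosome 13 Serpinb genes that passed the filter, each on its own linear axis from 0. Serpinb1a and Serpinb6a are highest in colon and intestine, while Serpinb6b and Serpinb9 are highest in forestomach and in colon replicate 2.

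Serpinb6b and Serpinb9 were each high in a forestomach library and in colon replicate 2. Serpinb6b, a near relative of Serpinb6a, measured 5.66 and 3.15 FPKM in the forestomach, 0.832 and 0.634 FPKM in the hindstomach, 1.63 and 6.45 FPKM in the colon and 0.593 and 0.471 FPKM in the intestine. Both forestomach and both colon libraries of Serpinb6b lay above the 4 hindstomach and intestine libraries, with forestomach and colon overlapping. Serpinb9, the inhibitor of granzyme B in cytotoxic lymphocytes and their neighbours, ranged from 0.507 FPKM in an intestine library to 5.18 FPKM in forestomach replicate 1, with 2.4 FPKM in colon replicate 2. The 12 leukocyte markers summed to 117.5 and 19.3 FPKM in the forestomach, 50.5 and 40.5 FPKM in the hindstomach, 52.3 and 101.9 FPKM in the colon and 36.9 and 25.4 FPKM in the intestine, none of them at 0 in any library. The 2 libraries with the highest sums, forestomach replicate 1 and colon replicate 2, were those with the highest Serpinb9 and Serpinb6b. However, forestomach replicate 2, with the lowest sum, had the next highest Serpinb6b and the next highest Serpinb9, the latter at 1.38 FPKM. In addition, the mesenchyme sum in colon replicate 2 was 1520 FPKM against 668.9 FPKM in colon replicate 1; the part of these cells in the Serpinb9 and Serpinb6b levels was not tested. With all 8 libraries neither gene was called in any of the 6 comparisons (limma adjusted p 0.0573 to 0.925). The smallest belonged to Serpinb6b in forestomach over intestine, a log2 difference of 1.78 ± 0.51, and this difference was called with a pseudocount of 0.1 (limma adjusted p = 0.0349), after median-of-ratios scaling (0.0385), with a depth term (0.0423), without colon replicate 1 (0.0228) and without colon replicate 2 (0.0218). Both genes depended on which forestomach library was kept. Neither was called in the forestomach comparisons without forestomach replicate 1. Without forestomach replicate 2, Serpinb6b was called higher in forestomach than in hindstomach and intestine (limma adjusted p = 0.0418 and 0.0298), and Serpinb9 higher than in hindstomach, intestine and colon (0.0183, 0.00828 and 0.0324).

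The remaining chromosome 13 genes were scarce. Serpinb1b measured 0.156 and 1.71 FPKM in the forestomach and between 0.0309 and 0.195 FPKM in the other libraries. Serpinb9b stayed between 0.0188 and 0.364 FPKM, Serpinb1c reached at most 0.107 FPKM, Serpinb6c 0.103 FPKM, Serpinb9e 0.00934 FPKM and Serpinb9g 0.00430 FPKM. FPKM alone does not tell an unexpressed gene from one too low for these depths.

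Between colon and intestine 0 inhibitor genes were called by limma, where 0.380% of all genes tested were. At an unadjusted p under 0.05 there were 2, Serpinb6b and Spink5, both higher in colon (1.53 ± 0.51 and 0.84 ± 0.33). The standard errors here include the gap between the forestomach libraries, since the fit shares 1 spread per gene among the tissues. Without forestomach replicate 1, limma called 1 gene, Slpi, where 2.54% of all genes were called.

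The proteases that these inhibitors are known to meet were taken from lists of 28 epithelial serine proteases, 15 lysosomal proteases, 19 leukocyte granule proteases and 10 caspases. Of the 21 epithelial serine proteases tested, 4 were called higher in forestomach than in hindstomach (Klk11, Klk7, Klk5 and Plau) and 2 lower (Hpn and Tmprss4). Against intestine 8 were called higher, Klk9, Klk11, Klk8 and Klk7 by the most, and 2 lower; against colon 4 were called higher (Klk7, Klk5, Plau and Klk6) and 3 lower (Klk1, Hpn and Tmprss4). Of all genes tested, 1.33% were called higher and 4.26% lower in forestomach than in hindstomach, 5.78% and 11.3% than in intestine, and 2.41% and 9.20% than in colon. The median log2 fold changes of the list were 2.82, 2.80 and 2.02 against hindstomach, intestine and colon, beside -0.39, -0.12 and -0.41 for all genes tested. Of the 21 genes behind those medians, 8 reached 1 FPKM in no library outside the forestomach (Klk5, Klk6, Klk7, Klk9, Klk12, Klk13, Prss22 and Prss27), so they could pass the filter only by being high there. Without forestomach replicate 1, 13 genes were tested, and 5 were called higher and 4 lower in forestomach in each of the 3 comparisons, where 20.9%, 27.9% and 25.6% of all genes were called. The medians were then -0.26, 0.79 and -0.09, beside -0.34, -0.05 and -0.31 for all genes tested.

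Klk5 and Klk7, the skin kallikreins that LEKTI inhibits, had the even replicates of Spink5. Klk7 measured 28.9 and 23.3 FPKM in the forestomach and at most 0.0410 FPKM in the other 6 libraries. Klk5 measured 6.11 and 7.50 FPKM in the forestomach and at most 0.0131 FPKM elsewhere. The fitted differences from hindstomach were 4.73 ± 0.20 for Klk7 and 2.96 ± 0.20 for Klk5, given as a description, since both genes entered the fit only through their forestomach values. Plau, the urokinase that Serpinb2 inhibits, measured 11.5 and 10.5 FPKM in the forestomach, 0.577 and 0.810 FPKM in the hindstomach, 1.97 and 3.05 FPKM in the colon and 1.39 and 0.235 FPKM in the intestine. Its forestomach libraries were alike, whereas those of Serpinb2 differed 10.9-fold. Klk11 had the uneven pattern, at 13.3 and 123 FPKM in the forestomach against 0.565 and 0.330 FPKM in the hindstomach.

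Of the 14 lysosomal proteases tested, 5 were called lower in forestomach than in intestine (Ctsa, Ctsz, Ctsl, Tpp1 and Lgmn), and the same 5 were lower than in colon, where 11.3% and 9.20% of all genes tested were called lower. When forestomach replicate 1 was left out, 10 were called in each of these comparisons, 2 higher in forestomach (Ctsd and Ctse) and 8 lower, against 27.9% and 25.6% of all genes in either direction; Ctsl was then lower than in intestine (-2.24 ± 0.35, limma adjusted p = 0.00521) but not called against colon (-1.13 ± 0.35, adjusted p = 0.0542). Between forestomach and hindstomach limma called 0, with 4 at an unadjusted p under 0.05; without forestomach replicate 1 it called 1 higher and 5 lower, against 20.9% of all genes in either direction. Cathepsin L (Ctsl) measured 58.7 and 90.1 FPKM in the forestomach, 104.4 and 88.7 FPKM in the hindstomach, 259.2 and 151.3 FPKM in the colon and 374.4 and 491.6 FPKM in the intestine. Legumain (Lgmn), which Cst6 inhibits, measured 20.9 and 15.4 FPKM in the forestomach, 16.7 and 18.9 FPKM in the hindstomach, 45.6 and 43.4 FPKM in the colon and 44.0 and 51.9 FPKM in the intestine. Its forestomach and hindstomach libraries overlapped, and all 4 lay below the colon and intestine libraries. Of the leukocyte granule proteases, the classical targets of Serpinb1a, Serpinb6a and Serpinb9, 7 of 19 passed the filter and limma called 0 in each of the 6 comparisons, with 0 at an unadjusted p under 0.05. Without forestomach replicate 1, 6 of them were tested. Their median log2 fold changes in forestomach were -0.67, -1.28 and -1.16 against hindstomach, intestine and colon. Beside these, the medians of all genes tested were -0.34, -0.05 and -0.31. Named for their role and not for a call, elastase (Elane) was at most 2.16 FPKM, cathepsin G (Ctsg) at most 2.03 FPKM and granzyme B (Gzmb) at most 0.376 FPKM in any library, all 3 below the Serpinb1a level everywhere. Among the caspases, Casp14, the caspase of cornifying epithelium, measured 7.60 and 36.7 FPKM in the forestomach against 0.0749 and 0.00832 FPKM in the hindstomach. It was called higher in forestomach in all 3 comparisons, but reached 1 FPKM in no library outside the forestomach and could pass the filter only there. It missed the filter without forestomach replicate 1.

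**Figure D5:**
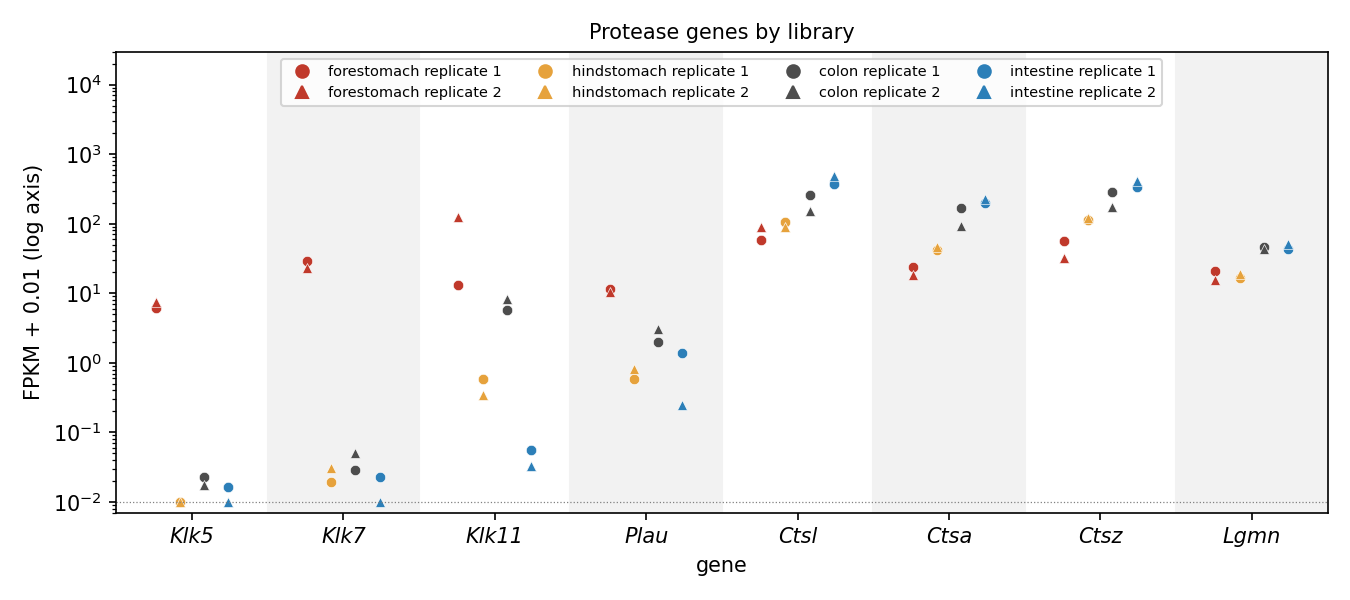
FPKM + 0.01 on a log axis for 8 protease genes, with 1 point per library (circles replicate 1, triangles replicate 2, colours the tissues; the dotted line is a listed value of 0). Klk5, Klk7 and Plau stand at nearly equal forestomach levels above all other libraries, while Ctsl, Ctsa, Ctsz and Lgmn are highest in colon and intestine.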

How the data were processed

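The authors deposited 1 table of FPKM values per gene; per the submitters' processing notes, reads were aligned with STAR 2.4.2a to mm10 (GRCm38). The program and annotation behind the FPKM, the use of strand and the assignment of shared reads are not given in these sources, and total read depth is unknown. The 8 E16.5 columns were assigned to tissues and replicates by name; 4 other columns match no listed sample and were not used. The members and gene lists were chosen with earlier results of these data known.

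Values were analysed as log2(FPKM + 1), which understates changes of low genes. The 12894 genes that reached 1 FPKM in 2 or more libraries were fitted with limma 3.58.1 in R 4.3.3, using 4 tissue means, a mean-variance trend and Benjamini-Hochberg adjustment; a call needed an adjusted p under 0.05 and a change of at least 2-fold. The script was tested on simulated data. The text gives every library for members averaging at least 5 FPKM in a tissue. It names other genes from the lists where called, up to 4 per direction, or 5 for the lysosomal proteases. Other members with library values were added after values were seen. So were Elane, Ctsg, Gzmb, Cdx2, Fabp1 and genes that passed the filter only through the forestomach. Same-numbered libraries of different tissues deviated from their tissue means with correlations from -0.578 to 0.27, so replicate numbers were not treated as pairs. Alternatives changed the pseudocount, filter, scaling, trend, tissues fitted, replicate block and depth term, and left out each library; the depth term and the unfiltered fit without forestomach replicate 1 were chosen after seeing the data. Gene positions and coding sequences came from GENCODE M21 and upstream sequences from RefSeq (GRCm38.p6).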

Additional observations from a re-analysis of the deposited data

How the results depend on the processing

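Counts of inhibitor genes called differed between settings. The share of all genes called is not given here for most of these settings. Whether the inhibitor genes or the overall rate of calls moved was not tested. Fitting only the 2 tissues compared gave 1 call for forestomach against hindstomach, 1 against intestine and 1 against colon, each of 14 tested. It gave 4 of 5 tested for hindstomach against intestine, 4 of 7 against colon and 1 of 5 for colon against intestine. With all tissues fitted these counts were 4, 7, 7, 1, 1 and 0, each of 14 tested. A pseudocount of 0.1 gave 11 for forestomach against intestine. Hindstomach against colon gave 0 with median-of-ratios scaling and 0 with a depth term. With the replicate number as a block, although the numbers do not pair the libraries, forestomach against hindstomach gave 2 calls and hindstomach against colon 0, with no other count moved by over 1.5 times. With no filter and without forestomach replicate 1 the 6 counts were 15, 15, 15, 3, 4 and 1. Leaving out 1 library at a time gave 1 to 6 for forestomach against hindstomach (1 without any single hindstomach or intestine library), 2 to 8 against intestine (2 without either intestine library), 1 to 7 against colon (1 without colon replicate 1), 0 to 4 for hindstomach against intestine, 0 to 4 against colon and 0 to 1 for colon against intestine. Over all alternatives, the 20 calls of single inhibitor genes were kept in 231 values, lost in 95 and reversed in 0. The cause of these losses was not tested. For forestomach against hindstomach, median-of-ratios scaling took the all-gene median (log2) from -0.39 to -0.05, with 23.9% of calls higher in forestomach before it and 50.9% after; against colon the median went from -0.41 to -0.02 and that share from 20.8% to 42.7%. For hindstomach against intestine the median moved from 0.25 to 0 and the share from 49.2% to 34.3%. Low values were read in steps that depend on library depth, so differences among the lowest values are limited by depth.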

Other observations

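Inhibitors of other families did not share one order along the gut. Of 13 genes tested from other serpin clades, 2 were lower in forestomach than in hindstomach (Serpinf2 and Serpina1b), 6 lower than in intestine and 3 lower than in colon, where 4.26%, 11.3% and 9.20% of all genes tested were called lower. Limma called 0 higher in forestomach in these comparisons, with 9, 8 and 7 of the 13 at an unadjusted p under 0.05 in either direction. Serpinf2, which encodes the plasmin inhibitor alpha-2-antiplasmin, measured 0.994 and 0.772 FPKM in the forestomach, 41.1 and 34.9 FPKM in the hindstomach, 5.73 and 3.51 FPKM in the colon and 10.3 and 5.68 FPKM in the intestine. The 2 hindstomach libraries were the highest of the 8, and it was called higher there than in intestine (2.16 ± 0.33, limma adjusted p = 0.0250) and colon (2.82 ± 0.33, adjusted p = 0.0181). Without forestomach replicate 1 the list's median log2 fold changes were -1.43, -1.48 and -1.64 against hindstomach, intestine and colon. The medians of all genes tested were then -0.34, -0.05 and -0.31.

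Of 17 tested genes for other cystatin, WAP, Kazal and Kunitz inhibitors, 2 were called lower in forestomach than in hindstomach (Spink1 and Wfdc2) and 1 higher (Wfdc12), 1 lower than in intestine (Spink1) and 3 higher (Wfdc1, Wfdc2 and Wfdc12), and 2 lower than in colon (Spink1 and Spink4) and 1 higher (Wfdc12). Of all genes tested, 1.33%, 5.78% and 2.41% were called higher in the same comparisons. Spink1, the trypsin inhibitor of pancreas and gut, measured 1.04 and 0.212 FPKM in the forestomach, 100.2 and 59.2 FPKM in the hindstomach, 1181 and 1024 FPKM in the colon and 567 and 677 FPKM in the intestine, and limma called it lower in forestomach than in each of the other tissues (-5.63 ± 0.35 against hindstomach, adjusted p = 0.00130; -6.01 ± 0.33 without forestomach replicate 1, adjusted p = 4.69e-04). Intestinal epithelium markers were likewise lowest in the forestomach. The 11 markers summed to 36.2 and 3.45 FPKM in the forestomach, 2484 and 2550 FPKM in the hindstomach, 9240 and 3132 FPKM in the colon and 12059 and 17140 FPKM in the intestine. The 9 of them called between forestomach and hindstomach were all lower in forestomach, and 0 of the 11 was at 0 in a hindstomach library (Cdx2 at 24.4 and 16.6 FPKM and Fabp1 at 1486 and 1410 FPKM there). The part of such cells in the hindstomach level of Spink1 was not tested. Wfdc12 measured 3.03 and 5.07 FPKM in the forestomach and at most 0.0788 FPKM elsewhere, with a fitted difference from hindstomach of 2.25 ± 0.25, a description since the gene passed the filter only through the forestomach and was no longer tested without forestomach replicate 1. Wfdc2 was highest in the hindstomach, at 15.8 and 29.6 FPKM in the forestomach, 137.2 and 137.2 FPKM in the hindstomach, 43.3 and 70.5 FPKM in the colon and 5.18 and 1.96 FPKM in the intestine. It was the 1 gene of this list called between colon and intestine (3.72 ± 0.46, limma adjusted p = 0.0485), and it was called there without forestomach replicate 1 as well.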
